A study of Mus musculus with 40 samples.

Results

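The heat shock proteins and their DnaJ co-chaperones were followed in mouse embryonic fibroblasts (MEFs) with 2 working copies of Sall2, which encodes a zinc finger transcription factor (wild-type, WT), with 1 (heterozygous, Het) or with none (knockout, KO). Members were the rows of the count table whose symbol begins with Hspa, Hspb, Hsph, Hspd, Hspe, Hsp90, Dnaja, Dnajb or Dnajc followed by a number or an a, which gave 72 of 24062 genes. The rule uses the letters of the symbol and no measured value. It leaves out Hsp90b1 and Trap1, the HSP90 proteins of the endoplasmic reticulum (ER) and the mitochondrion, and it takes in Hspb11 and Hspbap1, which carry the letters but are not chaperones.

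The cells were primary MEFs from embryos of 13.5 days post coitum, at passage 3, on a mixed C57BL/6J-129P2OlaHsd background. The KO cells also keep a stretch of chromosome 14 from the embryonic stem cell donor strain around the targeted gene, so loss of Sall2 and these flanking alleles cannot be told apart in a comparison of genotypes. They were left untreated (control) or received 1 µM doxorubicin, a topoisomerase II poison that breaks DNA, for 16 h. Each treatment had 1 WT, 1 Het and 3 KO embryos, so that the spread between embryos of one genotype was seen in KO alone. The doxorubicin libraries of KO embryos 2 and 3 held the same count for all 24062 genes and were counted as 1, called KO2 here, which left 5 control and 4 doxorubicin libraries of 15560728 to 24122414 counts. Values are CPM, the count of a gene as a part of all counts of its library, after scaling with TMM, a method that balances the bulk of the genes between libraries. At these depths 3 counts correspond to between 0.124 and 0.193 CPM before this scaling, and such limits cover counting error only.

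Chaperones of the HSP70 family hold unfolded stretches of protein in cycles of ATP hydrolysis. J proteins (DnaJ proteins) bring clients to them and start the hydrolysis, and HSP110 proteins exchange the nucleotide. HSP90 acts later on near-folded clients such as kinases and receptors, small heat shock proteins hold aggregating protein without ATP, and the chaperonin of the mitochondrion encloses a client in a chamber. In the cytosol many of these genes are driven by heat shock factor 1, and in the ER by the unfolded protein response, so that a cell carries an inducible and a constitutive set in each compartment.

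Reads of Sall2 itself were still present in KO. The control libraries of WT and Het held 756 and 587 of them and the KO controls 388 to 432, and the treated libraries of WT and Het held 188 and 164 and those of KO 76 and 81. Among the libraries, Het in both treatments and KO3 in control stood apart from the other 6. Fibroblast markers (8 of 8 detected) summed to 20300 CPM in Het and 16300 CPM in KO3 in control, against 78200 to 95300 CPM in the other 3 controls, while interferon genes (10 of 10) summed to 2170 and 2360 CPM against 45.3 to 62.9 CPM and macrophage markers (7 of 7) to 587 and 431 CPM against 87.8 to 156 CPM. Among the genes with lengths under 1 kb the median log2 difference from WT was 0.85 in Het and 1.03 in KO3, and over 8 kb it was -0.42 and -0.55, whereas KO1 and KO2 stayed within 0.08 of WT in every length class. The part of these library features in the values of the members was not tested, and where leaving them out changes a call or moves a fold by over 1.5 times, the value without them is given. In bulk RNA, fewer cells of a type and less RNA per cell cannot be told apart.

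The upstream sequences of the members the results turn on were read from RefSeq (GRCm38.p6), which listed 75 start sites for 58 of the 72 members. Hspa1a and Hspa1b, the inducible cytosolic HSP70 genes, are neighbouring copies on the minus strand of chromosome 17 (GRCm38, GENCODE M21, 34969190 to 34972156 and 34956436 to 34959238), and the 150 bases before their start sites differed at 1 position. They are shown on the minus strand, at chr17:34972157-34972306 for Hspa1a and chr17:34959239-34959388 for Hspa1b.
Hspa1a: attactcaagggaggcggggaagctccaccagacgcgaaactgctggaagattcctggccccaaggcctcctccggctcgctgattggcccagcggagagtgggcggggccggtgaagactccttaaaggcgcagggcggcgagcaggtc
Hspa1b: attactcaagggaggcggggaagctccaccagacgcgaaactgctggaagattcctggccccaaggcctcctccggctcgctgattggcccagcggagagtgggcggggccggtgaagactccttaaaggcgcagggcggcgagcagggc

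A heat shock element was searched as 3 contiguous units NGAAN in alternating orientation, on both strands, in the 300 bases from 250 before to 50 after each start site. It was found in 0.603% of 32851 start sites and at the sites of 4 members, Hspd1, Hspe1, Hsph1 and Dnajb6. Hspd1 and Hspe1 are head to head, and the same bases lie 127 to 144 bases before a start site of Hspd1 and 72 to 89 before that of Hspe1. In Hsph1 the match lay after the start site. The ER stress element, searched as CCAAT, 9 bases of any kind and CCACG on both strands, was found in 0.119% of the start sites and in those of Hspa5 and Dnajc3. Capitals mark the matched bases in 30-base stretches from chr1:55088053-55088082 (Hspd1, minus strand), chr5:29735844-29735873 (Dnajb6), chr2:34772020-34772049 (Hspa5) and chr14:118937822-118937851 (Dnajc3, all 3 on the plus strand).
Hspd1: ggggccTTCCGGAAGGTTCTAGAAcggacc
Dnajb6: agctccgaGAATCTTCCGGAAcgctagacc
Hspa5: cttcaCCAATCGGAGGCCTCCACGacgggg
Dnajc3: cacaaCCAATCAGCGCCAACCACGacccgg
A match is a description of these letters, and nothing follows from it or from its absence about the factor.

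To see what 16 h of doxorubicin did to the set, treated libraries were compared with control libraries in all genotypes together (edgeR quasi-likelihood test with genotype as a term, 5 against 4 libraries, Benjamini-Hochberg adjusted FDR under 0.05). Of the 72 members, 67 passed the filter on low counts, 19 of which rose, 23 fell and 25 did not pass the test. That is 28.4% higher and 34.3% lower, against 28.5% and 26.9% of all 15857 genes tested, so the number of called members was close to the background of this treatment. The median log2 fold change was -0.21 over the members and -0.01 over all genes. All 4 treated libraries lay above all 5 control libraries for 18 members and below them for 19, against 24.6% and 22% of all genes. 

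**Figure D1:**
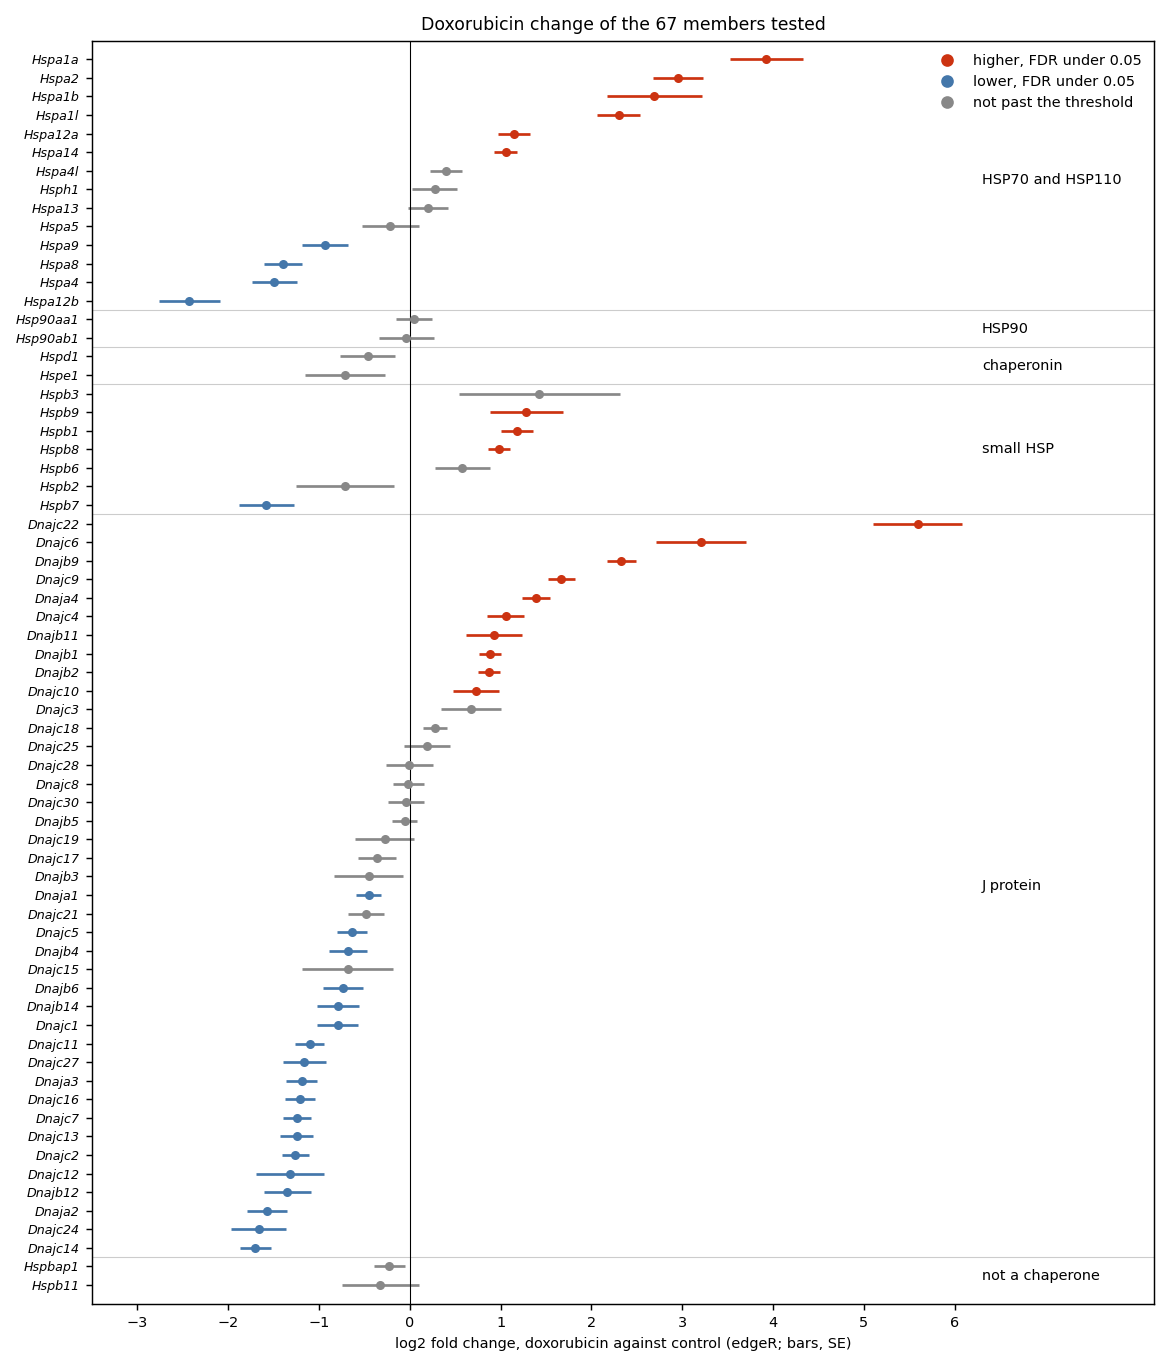
Log2 fold change with doxorubicin against control (x axis, points; bars, SE) for the 67 members tested, by class, with colour for calls at an FDR under 0.05. Rises and falls stand side by side in the HSP70 and J protein classes, and both HSP90 genes lie near 0.

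In the cytosolic HSP70 and HSP110 group, 5 of 9 members rose (Hspa1a, Hspa1b, Hspa1l, Hspa2 and Hspa14) and 2 fell (Hspa8 and Hspa4). Over all genes tested 28.5% rose and 26.9% fell. The control level of Hspa1a was 7.07 CPM (WT), 2.12 CPM (Het) and 9.19, 8.30 and 2.46 CPM (KO1, KO2 and KO3). With doxorubicin it was at 79.2 CPM in WT, 52.1 in Het, 116 in KO1 and 75.5 in KO2. The lowest treated library was above the highest control library, and the fold was 15.2 (log2 3.93, SE 0.397, edgeR FDR 9.55e-05). Its copy Hspa1b, at 38.1, 8.58, 56.5, 42.4 and 7.28 CPM in the controls in the same order, reached 181, 94.4, 248 and 174 CPM in WT, Het, KO1 and KO2 (6.48-fold, log2 2.69, SE 0.518, edgeR FDR 0.00239). Without Het and KO3, whose controls were the lowest for both copies, the fold was 11 for Hspa1a and 4.40 for Hspa1b. Since near-identical copies can share reads, which makes their separate values uncertain, their sum was also taken, and it went from 45.2 CPM to 260 CPM in WT, from 10.7 to 146 in Het, from 65.7 to 364 in KO1 and from 50.7 to 249 in KO2. In the controls Hspa1a made up 14.0% to 25.2% of the counts of the pair, and with doxorubicin 30.3% to 35.6%.

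Hspa2 is an HSP70 best known from the testis. Its control libraries held 26.7 CPM (WT), 18.9 CPM (Het) and 24.5, 24.2 and 10.7 CPM (KO1, KO2 and KO3), and it was at 173, 111, 197 and 172 CPM in WT, Het, KO1 and KO2 with doxorubicin. The groups did not overlap (7.75-fold, log2 2.95, SE 0.271, edgeR FDR 6.63e-05). Hspa1l, the third gene of the chromosome 17 cluster, rose 4.93-fold from between 1.94 and 3.92 CPM to between 10.4 and 20.6 CPM. Hspa14, which works on the ribosome, rose 2.08-fold from 43.1 to 58.7 CPM in the controls to 82.9 to 128 CPM with treatment.

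The cytosolic members of the family that fell were Hspa8 and Hspa4. Hspa8, the main housekeeping HSP70, had control levels of 537 CPM (WT), 279 CPM (Het) and 542, 483 and 316 CPM (KO1, KO2 and KO3), and fell to 166, 110, 185 and 182 CPM in WT, Het, KO1 and KO2 with doxorubicin. Every treated library was below every control library (2.62-fold lower, log2 -1.39, SE 0.208, edgeR FDR 0.000666). Hspa4, an HSP110 protein that exchanges nucleotide on HSP70, fell 2.81-fold, from 520, 299, 529, 504 and 284 CPM in the controls to 152, 118, 196 and 129 CPM (log2 -1.49, SE 0.249, edgeR FDR 0.00118). Its relatives Hsph1 and Hspa4l did not pass the test, with log2 values of 0.27 (SE 0.248) and 0.40 (SE 0.178), although Hspa4l did with an offset for gene length (log2 0.85, edgeR FDR 0.0022).

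The distant relatives Hspa12a and Hspa12b, HSP70-like genes whose compartment was not assigned, moved in opposite directions. Hspa12b was at 10.8, 5.23, 12.7, 13.3 and 7.99 CPM in the controls of WT, Het, KO1, KO2 and KO3 and at 1.25, 2.04, 1.95 and 1.79 CPM with doxorubicin (5.38-fold lower, log2 -2.43, SE 0.334, edgeR FDR 0.000431). No other member had a larger fall in this fit. Hspa12a rose 2.21-fold, from 10.9 to 21.2 CPM to 25.5 to 38.9 CPM.

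**Figure D2:**
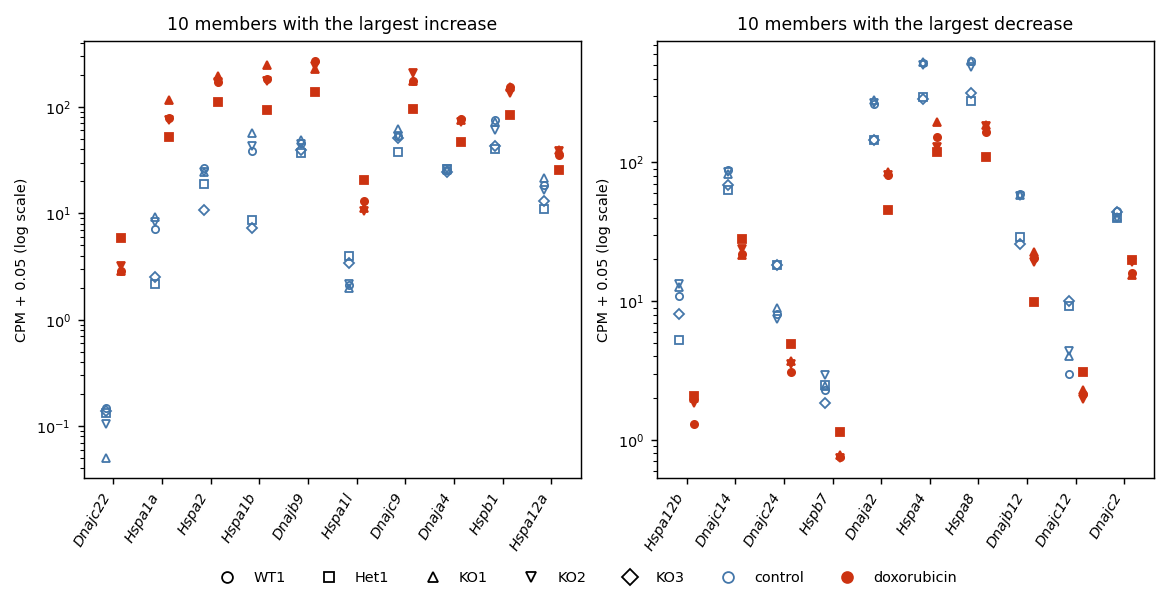
CPM plus 0.05 (y axis, log scale) in every library for the 10 members with the largest increase (left) and the 10 with the largest decrease (right) among those past the threshold at a mean of at least 1 CPM, with open symbols for control and filled symbols for doxorubicin. The treated and control symbols are separate for every member shown apart from Dnajc12, where the treated Het library (3.03 CPM) lies above the WT control (2.92 CPM). The members were chosen for their change, so this separation follows in part from the choice. Over all genes tested, treated libraries lay above all controls for 24.6% and below for 22%. Dnajc22 passed the filter through its treated libraries.

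Neither of the cytosolic HSP90 genes passed the test. Hsp90ab1, the constitutive form and the member with the highest level per length in WT control (1110 RPKM, which is CPM per kilobase of exon), was at 2798, 1260, 2680, 2782 and 1294 CPM in the controls of WT, Het, KO1, KO2 and KO3 and at 2555, 1009, 2618 and 2274 CPM with doxorubicin. Its log2 value was -0.04 (SE 0.303, 95% interval -0.728 to 0.655). Hsp90aa1, the inducible form, was at 285, 146, 284, 260 and 159 CPM in the same controls and at 287, 133, 270 and 243 CPM with treatment (log2 0.04, SE 0.199), and the sign of each changes under other settings (no TMM for Hsp90ab1, the embryo as a block for Hsp90aa1). In each treatment the lowest values of both genes were those of the libraries that stood apart.

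Small heat shock proteins were led by Hspb1 and Hspb8, which keep unfolding protein soluble and, for Hspb8, hand it to autophagy with Bag3. For Hspb1 the controls gave 74.7 CPM (WT), 40.0 CPM (Het) and 72.7, 61.1 and 43.3 CPM (KO1, KO2 and KO3), and treated libraries 154, 83.1, 155 and 134 CPM with doxorubicin (2.27-fold, log2 1.18, SE 0.174, edgeR FDR 0.000621). Hspb8 rose 1.97-fold from 54.5 to 74.7 CPM to 118 to 148 CPM, with no lower values in Het and KO3 (edgeR FDR 0.000287). Of the 7 genes of this class 3 rose and 1 fell, against 28.5% and 26.9% of all genes, and the median log2 value was 0.98. Hspb9 was the third to rise, at under 1 CPM in the controls, and its edgeR FDR reached 0.266 among the alternatives, with WT, Het, KO1 or KO2 left out among those that lost it, and Hspb7, a muscle gene, fell from 1.79 to 2.90 CPM to 0.689 to 1.09 CPM.

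In the ER, 3 of 11 members rose (Dnajb9, Dnajb11 and Dnajc10) and 4 fell (Dnajc14, Dnajb12, Dnajb14 and Dnajc1), against 28.5% and 26.9% of all genes. The median log2 value was 0.20. Dnajb9, a J protein that takes misfolded clients to degradation and restrains the stress sensor Ire1, had control levels of 45.7 CPM (WT), 37.1 CPM (Het) and 48.3, 44.3 and 39.2 CPM (KO1, KO2 and KO3). It was at 272, 137, 225 and 243 CPM in WT, Het, KO1 and KO2 with doxorubicin, with no overlap (5.03-fold, log2 2.33, SE 0.158), and its edgeR FDR of 1.89e-05 was the smallest among the members. Dnajb11, a co-chaperone of Hspa5 for nascent chains, rose 1.90-fold (edgeR FDR 0.0295), and Dnajc10, a disulfide reductase, rose 1.66-fold (edgeR FDR 0.0368), both with treated Het libraries (151 and 170 CPM) under the untreated WT (190 and 308 CPM). Leaving out WT, Het or KO2 gave Dnajb11 an edgeR FDR of 0.0815, 0.0599 and 0.102, and leaving out WT, KO1 or KO2 gave Dnajc10 0.0997, 0.0869 and 0.145. Dnajb14 and Dnajc1, which fell 1.73-fold each, likewise lost the call without WT, KO1 or KO2, with a largest edgeR FDR over the alternatives of 0.210 and 0.107, and Dnajb14 also with length offsets (log2 -0.34, FDR 0.133).

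Hspa5 (BiP), the HSP70 of the ER (chromosome 2, 34771970 to 34777547), was at 1752, 712, 1954, 1661 and 721 CPM in the controls of WT, Het, KO1, KO2 and KO3 and at 1498, 502, 1446 and 1269 CPM with doxorubicin. It was lower in treated than in control cells of the same embryo in 4 of 4 embryos, by 0.23 to 0.50 on the log2 scale. In the comparison without embryos it did not pass (log2 -0.21, edgeR FDR 0.591), and with the embryo as a block, which leaves out KO3, it did (log2 -0.39, edgeR FDR 0.00568). Without Het and KO3 it was called too (log2 -0.35, edgeR FDR 0.026), but not with length offsets, alone (log2 -0.03, FDR 0.924) or with the block (log2 -0.19, FDR 0.0714), nor in KO only (log2 -0.08, FDR 0.924). Hspa13, the other HSP70 there, was at log2 0.20 (edgeR FDR 0.456), higher with treatment in WT, KO1 and KO2 and lower in Het. Dnajc3, which feeds Hspa5 and blocks the kinase Perk from the cytosolic side, was higher in treated cells in 4 of 4 embryos by 0.31 to 0.60 (log2 0.68, edgeR FDR 0.113 without the block, 0.48 and 0.00211 with it, 0.45 and 0.0109 without Het and KO3). Hspa5 and Dnajc3 both carry the ER stress element shown above, and its part in their values was not tested. The 4 members that fell include Dnajc14, from 63.3 to 87.8 CPM to 21.6 to 27.9 CPM (3.25-fold lower, edgeR FDR 8.87e-05), and Dnajb12, a membrane J protein of the quality control pathway, 2.55-fold lower.

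Of the 8 mitochondrial members Dnaja3, Dnajc11 and Hspa9 fell and the other 5 did not pass, where 26.9% of all genes fell. The median log2 value was -0.70, and it depends in part on the Het and KO3 libraries. Without them Dnajc15 turned from -0.69 to 0.13, Dnajc19 from -0.28 to 0.20 and Hspe1 from -0.71 to -0.01, and none of these was called. Hspa9 (mortalin), the motor of protein import, had control levels of 878 CPM (WT), 403 CPM (Het) and 712, 820 and 382 CPM (KO1, KO2 and KO3), and was at 396, 194, 386 and 351 CPM with doxorubicin. Each of 4 embryos fell by between 0.88 and 1.22 on the log2 scale, but treated WT (396 CPM) was above untreated KO3 (382 CPM), so the groups overlapped (1.91-fold lower, log2 -0.93, SE 0.254, edgeR FDR 0.0132). Without WT, KO1 or KO2 its FDR in edgeR was 0.0598, 0.0625 and 0.0779. Dnaja3, its J partner, fell 2.28-fold from between 37.9 and 55.5 CPM to between 17.1 and 24.4 CPM without overlap. The chaperonin genes Hspd1 and Hspe1 did not pass in the comparison without embryos. Hspd1 was lower with treatment in 4 of 4 embryos by 0.55 to 0.80. It was called with the embryo as a block (log2 -0.66, edgeR FDR 0.000335), with block and length offsets (-0.60, FDR 0.000336) and without Het and KO3 (log2 -0.66, FDR 0.000996). Without the block it was at log2 -0.46 (FDR 0.226). It was not called with length offsets alone (-0.41, FDR 0.254), in KO only (-0.31, FDR 0.655) or by DESeq2 (-0.42, FDR 0.252).

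Hspe1, the lid of the same chaperonin and head to head with Hspd1, differed between libraries. It was at 69.7, 77.5 and 73.6 CPM in the WT, KO1 and KO2 controls but at 203 CPM in Het and 287 CPM in KO3, and at 73.4, 117, 73.0 and 72.7 CPM in WT, Het, KO1 and KO2 with doxorubicin. Its change was within 0.09 of 0 in WT, KO1 and KO2 and -0.79 in Het. The log2 value was -0.71 (edgeR FDR 0.201), it was called with length offsets, alone (-0.76, FDR 0.0237) or with the block (-0.54, FDR 0.00142), and it was -0.01 (FDR 0.897) without Het and KO3. In the libraries that stood apart Hspd1 was low (131 CPM in Het and 152 CPM in KO3) where Hspe1 was high, and with 0.774 kb of exon Hspe1 is among the 6 members under 1 kb.

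**Figure D3:**
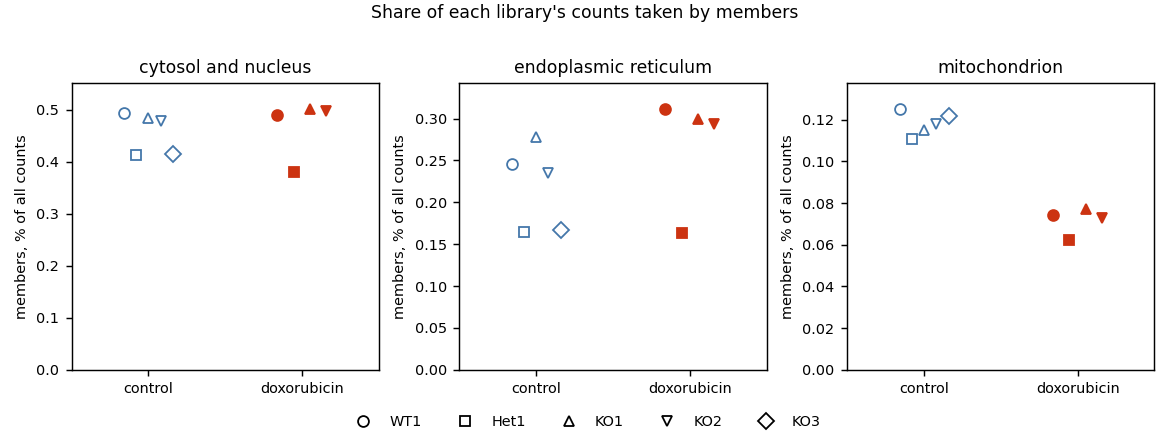
Percent of all counts of a library (y axis) that fell on cytosolic, ER and mitochondrial members in 5 control and 4 doxorubicin libraries, with a symbol for each embryo. The mitochondrial share was 0.111% to 0.125% in control and 0.0623% to 0.0771% with doxorubicin, while the cytosolic and ER shares overlap between treatments and are low in Het and, in control, KO3.

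J proteins were the largest class, with 45 genes of which 40 were tested, and 10 rose while 18 fell. The shares over all genes tested were 28.5% and 26.9%. Class A, built like bacterial DnaJ, had 3 that fell (Dnaja1, Dnaja2 and Dnaja3) and 1 that rose (Dnaja4). Dnaja2, a partner of Hspa8 in refolding, was at 266, 145, 282, 266 and 146 CPM in the controls of WT, Het, KO1, KO2 and KO3 and at 81.4, 45.2, 85.2 and 81.6 CPM with doxorubicin (2.97-fold lower, log2 -1.57, SE 0.219, edgeR FDR 0.000459). The change within an embryo lay between -1.72 and -1.68, with Het among the others. Dnaja4 rose 2.62-fold from 24.2 to 26.2 CPM to 46.3 to 76.6 CPM. The exons of Dnaja1 overlap a miRNA gene and, on the other strand, Smu1. Dnaja1 fell 1.37-fold (edgeR FDR 0.0239) and was not called with an offset for gene length (FDR 0.323) or without WT, KO1 or KO2 (FDR 0.0851, 0.161 and 0.0831).

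Class B is split. Dnajb1 (Hsp40), the classical partner of the inducible HSP70 in the cytosol, was at 64.2, 58.7, 64.7, 65.1 and 67.2 CPM in the controls of WT, Het, KO1, KO2 and KO3 and at 108, 117, 112 and 132 CPM with doxorubicin (1.84-fold, log2 0.88, SE 0.123, edgeR FDR 0.000449). Neither Het nor KO3 was apart for this gene. Dnajb2, a J protein of neurons that works with the proteasome, rose 1.83-fold from 29.4 to 34.0 CPM to 51.7 to 63.6 CPM. Dnajb4 and Dnajb6, which hold back aggregation, fell 1.60-fold and 1.67-fold (edgeR FDR 0.0207 and 0.0195), with overlap between the groups. Dnajb6 carries the heat shock element shown above, and without WT, KO1 or KO2 its FDR in edgeR was 0.0711, 0.0881 and 0.0871, and with length offsets 0.0878. Without WT, Het, KO1 or KO2 that of Dnajb4 was 0.0616, 0.0731, 0.106 and 0.0757. Dnajb5 did not pass (log2 -0.06, SE 0.134).

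Class C, joined only by the J domain, held 5 that rose and 11 that fell among 26 tested, against 28.5% and 26.9% of all genes. Dnajc22, a membrane J protein, had 2 counts in each of the WT, Het and KO3 controls, 1 in KO2 and 0 in KO1, and 57, 116, 51 and 68 counts in WT, Het, KO1 and KO2 with doxorubicin. Pooled over libraries this was 7 counts against 292, a ratio of 54.6 (exact 95% counting interval 26.2 to 137). Dnajc6 (auxilin), which uncoats clathrin vesicles, likewise went from 16 to 100 counts, a ratio of 8.19 (4.80 to 14.9), at under 1 CPM on average. Of its 16 control counts 9 were in Het, and the fitted fold was 9.23 with all libraries and 16.4 without Het and KO3. Both passed the filter through the treated libraries, so their place among the rises follows from that. Dnajc9, a histone chaperone, rose 3.18-fold from 37.4 to 62.3 CPM to 95 to 209 CPM (log2 1.67, SE 0.146, edgeR FDR 5.45e-05). Dnajc4 rose 2.08-fold. Among those that fell, Dnajc2, a ribosome-bound partner of Hspa14, went from between 39.6 and 44.4 CPM to between 15.3 and 19.6 CPM, the opposite of Hspa14 itself. Dnajc24, which serves diphthamide synthesis, fell 3.17-fold. Dnajc7, a co-chaperone between HSP70 and HSP90, fell 2.36-fold (edgeR FDR 0.000276). Dnajc5, the cysteine string protein of vesicles, fell 1.55-fold, and was not called with an offset for gene length (edgeR FDR 0.0858) or without WT, KO1 or KO2 (FDR 0.0645, 0.0828 and 0.0879). Dnajc12 fell 2.50-fold (edgeR FDR 0.0153), with Het and KO3 controls at 9.11 and 9.91 CPM and the others at 2.92 to 4.35 CPM, and was not called without Het, KO1 or KO2 (FDR 0.0616, 0.0556 and 0.0741).

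Length enters this comparison as a measured fact. With doxorubicin the median change of genes under 1 kb was 0.49 in WT, 0.53 in KO1 and 0.51 in KO2, and over 8 kb it was -0.63, -0.68 and -0.71, while in Het it went from 0.04 to -0.18. With offsets that remove this trend, 22 members rose and 20 fell, where 4914 and 3579 of 15117 genes did. Without both Het libraries and KO3, 22 rose and 27 fell, where 5968 and 5453 of 14991 genes did. The 7 members called there and not with all libraries were Hspa5, Hspd1, Dnajc3, Hspa4l (log2 0.34, edgeR FDR 0.0152), Dnajc21 (-0.72, FDR 0.000685), Hspbap1 (-0.40, FDR 0.0158) and Hspb11, which turned from -0.32 to 0.38 (FDR 0.0369). Of the 42 called members all kept their direction in 16 alternatives at the same threshold, and 15 of 19 rises and 14 of 23 falls were called in every one of them, Hspa1a, Hspa1b, Hspa2, Dnajb9, Dnajc9, Hspb1, Hspb8, Dnajb1, Hspa8, Hspa4 and Dnaja2 among them. The alternatives use the same libraries or a part of them, so a kept direction was likely beforehand. The share of all called genes that held was not taken.

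Other genes of the pathways, from lists that are not members, were called in both directions too. Over all genes tested 28.5% rose and 26.9% fell, and whether a list differs from these shares was not tested. Of 23 heat shock factors and cytosolic co-chaperones 8 rose and 7 fell. Hsf1, the factor of the heat shock response, was at 45.9 to 66.6 CPM in the controls and at 18.6 to 29.6 CPM with doxorubicin (log2 -1.38, SE 0.165, edgeR FDR 0.000217), and Hsf2 fell by 1.34 on the log2 scale. Hsf4, another factor of the family, rose 3.52-fold from 1.12 to 3.93 CPM to 6.81 to 10.8 CPM (edgeR FDR 0.00264). Cryab, a small heat shock protein under another symbol, rose 1.62-fold, and Bag3 was at log2 -0.12 (edgeR FDR 0.730). Of 14 TRiC and prefoldin genes 1 rose and 3 fell. Of 27 genes of ER folding and the unfolded protein response 5 rose and 7 fell, with Hsp90b1 at log2 0.50 (edgeR FDR 0.336) and Hyou1 at 0.90 (FDR 0.0719). The 5 that rose were the sensor Ern1 (3.03-fold), Ppp1r15a (2.98-fold), Creld2 (2.57-fold), Sdf2l1 (2.48-fold) and Edem1 (2.08-fold). Atf4 and Xbp1, factors of that response, fell by 2.29 and 1.28 on the log2 scale, and Ddit3 did not pass (log2 -0.44, edgeR FDR 0.379). Of 13 genes of mitochondrial protein quality 1 rose and 4 fell, and Trap1 was at log2 -0.05 (edgeR FDR 0.808).

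As a check of the treatment, 0 of 8 targets of p53 rose, 2 (Cdkn1a and Phlda3) fell and the other 6 did not pass. The check therefore showed no rise of these p53 targets with the drug. Cdkn1a, the cell cycle inhibitor, was at 390 to 551 CPM in the controls and at 271 to 337 CPM with doxorubicin (edgeR FDR 0.0152), and Mdm2 was at log2 -0.23 (FDR 0.547). The 10 interferon genes did not pass, but their sum went up within 3 embryos, from 45.3 to 331 CPM in WT, 62.9 to 397 in KO1 and 47.0 to 418 in KO2, and down from 2170 to 1480 CPM in Het. Of the cell type lists, 4 of 5 endothelial genes rose, 2 of 3 epithelial genes rose and 1 fell, 1 of 5 neural and glial genes rose and 1 fell, 1 of 7 macrophage genes rose and 1 fell, 1 of 8 fibroblast genes fell and 1 of 7 muscle genes fell. Over all genes tested 28.5% rose and 26.9% fell. Sums stayed at most 90.9 CPM for endothelial and 18.7 CPM for epithelial markers in any library. Muscle markers summed to 69.3 to 203 CPM, neural and glial markers to 62.7 to 105 CPM, and their part in the values of the members was not tested.

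Members were then compared between genotypes, as the study did for WT and KO. Without treatment, 0 of 64 members differed between 3 KO libraries and 1 WT library in the quasi-likelihood test of edgeR, where 0% of 14470 genes were called, and 10 genes but 0 members had an unadjusted p under 0.05. DESeq2 called 0 members as well. Hspa1a differed by -0.07 on the log2 scale (95% interval -2.21 to 2.07), Hspa8 by -0.24 (-1.61 to 1.13), Hspa5 by -0.26 (-2.40 to 1.88) and Dnajb9 by -0.03 (-0.818 to 0.756). For Hspa1a, Hspa8 and Hspa5 these intervals take in differences of more than 1 on the log2 scale. Dnajc3, Dnajc9 and Dnajc15 lie on chromosome 14, like Sall2, and were not called either, with Dnajc15 at 1.52 (-1.46 to 4.50). Without KO3 the members lay between -0.205 and 0.527, with a median SE of 0.180 against 0.475 with it, and again 0 of 63 were called. With RUVg, the removal of unwanted variation used in the study, and the exact test of edgeR, 2 of 64 members were called higher in KO, Dnajc12 (log2 0.81, FDR 0.0182) and Hspe1 (log2 0.58, FDR 0.0228), where 2.58% of all genes were called. Hspe1 was high in KO3 (287 CPM) and at 77.5 and 73.6 CPM in KO1 and KO2 against 69.7 in WT, and Dnajc12 was at 9.91, 3.98 and 4.35 CPM in KO3, KO1 and KO2 against 2.92 in WT.

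With doxorubicin, 0 of 66 members differed between 2 KO libraries and 1 WT library, against 0.302% of 15256 genes, and 433 genes and 2 members had an unadjusted p under 0.05 in edgeR, Hspb2 and Dnajb3, at no more than 2.11 CPM in these libraries and named after their values were seen. DESeq2 called 0 members too. The intervals were narrower here, at -0.149 to 0.677 for Hspa1a, -0.308 to 0.596 for Hspa8, -0.735 to 0.439 for Hspa5, -0.688 to 0.244 for Dnajb9 and -0.532 to 0.341 for Hspb1. They rest on 1 WT and 2 KO libraries, without a library like KO3, and on a spread pooled over genes. Larger differences between embryos of these genotypes are therefore not excluded.

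A slope on the number of working Sall2 copies (scaled to 1 in WT, 0.5 in Het and 0 in KO) was fitted over the 5 control libraries, and 0 of 64 members passed, where 0% of 14280 genes did and 11 genes but 0 members had an unadjusted p under 0.05, in edgeR and with 0 members called by DESeq2. The change with doxorubicin was also compared between KO and WT as an interaction, in which 0 of 66 members passed, with 0% of 15905 genes called, 41 genes but 0 members at an unadjusted p under 0.05 in edgeR and 0 members called by DESeq2. The interaction was 0.36 for Hspa1a (95% interval -2.15 to 2.87), 0.41 for Hspa8 (-1.08 to 1.90) and -0.16 for Dnajb9 (-1.15 to 0.825). The median SE over the members was 0.609 here, 0.281 without KO3 and 0.233 with the embryo as a block, so the limits are narrower there, and 0 members were called by edgeR in either, with 1 at an unadjusted p under 0.05 in each.

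**Figure D4:**
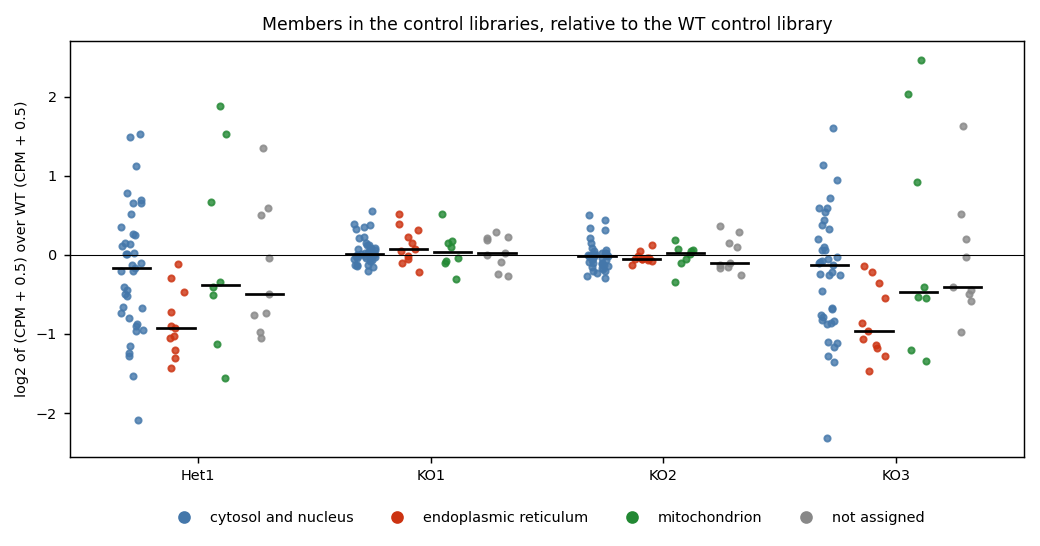
Log2 ratio of CPM plus 0.5 to the WT control library (y axis) for the 67 members in the Het, KO1, KO2 and KO3 control libraries, by compartment (colours), with bars at the medians. KO1 and KO2 lie close to 0, whereas Het and KO3 spread both ways, with the ER members below 0.

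In the controls the members of Het and KO3 were set beside those of WT, KO1 and KO2. Het and KO3 were both below WT, KO1 and KO2 for 40 of 67 members and both above for 17, against 36% and 38.1% of all genes tested. The grouping was made from these data and is described without a test. The 11 ER members were all below, with a median log2 difference of -0.87, against 0.04 over all genes, while 5 of 8 mitochondrial members were below and 3 above. HSP70 and HSP110 genes were below in 13 of 14 cases. Hspa1b showed one of the widest gaps, with 8.58 CPM in Het and 7.28 in KO3 against 38.1 to 56.5 CPM in the other 3, and Hspa5 had 712 and 721 CPM against 1661 to 1954 CPM. With doxorubicin, Het was again below WT, KO1 and KO2 for 34 of these 40 members and above for 13 of the 17, where over all genes it was so for 4226 of 5702 and 4386 of 6048. Dnajc15, a mitochondrial J protein that represses respiration, was at 37.8 CPM in Het and 56.8 CPM in KO3 against 9.84 to 14.3 CPM. The fibroblast, interferon and macrophage sums and the length classes given above moved with the same libraries and their part was not tested. The control libraries with this pattern were those of Het and KO3, and its cause was not tested.

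Of the members that were not tested, Dnajb8 had 0 counts in all 9 libraries and Dnajc5b had at most 1, Dnajc5g at most 5, Dnajb7 at most 4 and Dnajb13 at most 25. These are J proteins that are mostly known from testis or other specialised tissues.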

How the data were processed

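Processed counts were analysed from where the authors stopped. The authors deposited counts, whole numbers of reads per gene, without normalization. The 4 runs of a library had been joined by them before reads were aligned to mm10 with HISAT2 (2.1.0 in the submitters' processing notes) and were counted with HTSeq in union mode on an iGenomes annotation. The libraries were depleted of rRNA and prepared as stranded, and the strand setting of HTSeq is not given in the sources used here. So 12 members with exons overlapping a gene on the other strand, and 1 on the same strand, are uncertain. The called members among them are Dnaja1, Dnaja4, Dnajb6, Dnajb9, Dnajc1, Dnajc7 and Dnajc14. Samples were grouped by genotype, treatment and embryo from their labels.

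Analysis used R 4.3.3, edgeR 4.0.16 (TMM, filterByExpr, quasi-likelihood test, two-sided, Benjamini-Hochberg over all genes tested, FDR under 0.05), limma 3.58.1 and DESeq2 1.42.0. WT and Het have 1 library per treatment, so the spread comes mostly from KO, and p-values measure the spread between these embryos. In the fit of KO against WT with doxorubicin the spread was pooled over genes. CPM in the text are scaled by TMM, and RPKM used exon lengths of GENCODE M21, which were found for 22750 genes and all 72 members. In the length offsets a trend on exon length was removed per library. Only the fit of doxorubicin against control was tried on simulated counts. These had the same spread for every gene and no embryo pairs, no libraries that stood apart and no length trend.

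The members, lists and tests were chosen with earlier results of these data known. Named members are the 10 largest rises and the 10 largest falls that passed at a mean of at least 1 CPM and the same sign in 4 embryos, 29 core members, members called in a genotype comparison, those at or under 3 counts, and 13 genes of the lists. Members outside this rule (Hspa14, Hspb9, Dnajc4, Dnajc7, Dnajc6, Dnajc11, Dnajc1, Dnajb14, Dnajc15, Dnajc19, Dnajc21, Dnajc28, Hspb2, Hspb3, Hspb6, Dnajb3, Hspb11, Hspbap1, Dnajc5g, Dnajb7 and Dnajb13, and Phlda3, Hsf4, Ern1, Ppp1r15a, Creld2, Sdf2l1 and Edem1 of the lists) were named to complete a count or after their values were seen.

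The embryo pairs the samples, since the labels give an embryo the same number in both treatments. KO1 minus KO2 in control and with doxorubicin correlated with r = 0.370 across 15857 genes (genes do not stand for replicates), and with 0.185 if the identical library is taken as that of KO3. The alternatives were the embryo as a block, DESeq2, other filters and scalings, stricter thresholds, each embryo left out, KO alone, RUVg and, chosen after seeing the data, length offsets, the libraries that stood apart left out, and the identical library taken as that of KO3.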

Additional observations from a re-analysis of the deposited data

Results flagged for a closer look

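In 4 of 67 members the change of 1 embryo with doxorubicin lay far from those of the other 3 by Dixon's test. Chance alone does this in about 1 of 20 groups, so the number flagged is near what chance gives. The test was run on members only, and the share over all genes was not taken. Dnaja4 changed by 0.83 on the log2 scale in Het, against 1.45 to 1.57 in WT, KO1 and KO2. Hspa1b changed by 3.44 in Het, against 2.03 to 2.25 in the others. Dnajc19, a part of the mitochondrial import motor, changed by -0.65 in Het, against 0.14 to 0.29. Dnajc28 changed by -0.46 in KO2, against 0.13 to 0.21. In 3 of these 4 the embryo was Het. Both of its libraries stood apart in the fibroblast and interferon sums, and its control library in the length classes. Their part in these flags was not tested.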

How the results depend on the processing

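All 42 called members kept their direction in the 16 alternatives at an FDR of 0.05, which share libraries with the fit that called them. The number of calls moved. Members that fell, 23 in the report, numbered 10 at an FDR of 0.001 (all genes 1877 higher and 1489 lower). Rises under 0.001 included Dnajb9 (edgeR FDR 1.89e-05), Hspa2 (6.63e-05), Hspa1a (9.55e-05) and Hspb8 (0.000287). With KO libraries only, members that fell numbered 15 (all genes 2758 higher and 2372 lower). With 1 embryo left out in turn they numbered 15 to 26, at 15 without KO1 or KO2, and members that rose 16 to 21, where all genes numbered 2941 to 5325 lower (3140 without KO1, 2941 without KO2) and 3223 to 5776 higher. With the embryo as a replicate block, which drops KO3 in control, 21 members rose and 26 fell (all genes 5782 and 5327). The block added Hspb6 (0.39, edgeR FDR 0.0419) and Dnajc21 (-0.56, edgeR FDR 0.0166) to Hspa5, Hspd1 and Dnajc3. The log2 value of Hsp90aa1 turned to -0.08 with the block or without KO3 and to -0.05 without Het and KO3, and ranged from -0.08 to 0.10 over the left-out embryos. That of Hsp90ab1 turned to 0.01 with DESeq2 or without KO2, 0.06 without TMM, 0.05 without Het, 0.13 with KO only, 0.03 with length offsets and 0.08 with the block and the identical library as KO3, and ranged from -0.20 to 0.05 over the left-out embryos. That of Dnajb5 turned to 0 without TMM or without WT, 0.08 with KO only, 0.11 with length offsets and 0.09 with these and the block, and ranged from -0.11 to 0 over the left-out embryos.

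Between KO and WT in control, RUVg called 2 members and 215 genes higher and 158 lower, and leaving out a KO embryo gave 0 to 64 genes higher (64 without KO1, 52 without KO2) and 0 to 1 lower, with 0 members called by edgeR and at most 1 member at an unadjusted p under 0.05. With doxorubicin, the 24 genes higher and 22 lower became 2 and 3 with DESeq2, 15 and 9 without TMM, 12 lower at an FDR of 0.01, and 0 and 0 with all libraries in a single fit. The interaction called 2 genes higher and 10 lower with the block and 0 to 20 lower with a KO embryo left out (20 without KO1, 16 without KO2). Leaving out an embryo could not be fitted for KO against WT with doxorubicin, where no residual degrees of freedom remain. Length offsets, alone or with the block, leaving out Het and KO3, and the identical library as KO3 were chosen after seeing the data, and the cause of these moves was not tested. Depth limits Dnajc22, Dnajc6, Hspb2, Hspb3 and Hspb9 most, which were under 2 CPM in every control library.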
